A study of Mus musculus with 6 samples.

Results

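The transcripts of 10 genes of cystine import, glutathione chemistry and the NRF2 antioxidant programme were followed in intestinal tissue of mice with colitis. They are Slc7a11, Gclc, Gclm, Gsr, Gpx2, Nqo1, Txnrd1, Srxn1, G6pdx and Nfe2l2, grouped by function but chosen with earlier results of these data known. All 10 were found by symbol among the 55335 genes of the count table and were abundant enough to test. RNA-seq had been made from wild-type (WT) mice and from Trmt6-/- mice, with 3 animals in each group, and colitis had been induced in all 6 with DSS (dextran sulfate sodium), which damages the gut lining when given to mice. Trmt6 encodes a subunit of the enzyme that methylates adenosine in tRNA, and the series title speaks of translational regulation. Transcript abundance is what was measured here. No untreated animals were analysed here, and neither the age of the mice, the intestinal segment, nor the construction of the Trmt6 allele is given in the labels.

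Libraries held between 15213972 and 16972758 fragments. Values are normalised CPM (fragments of a gene relative to the TMM-scaled size of the library), and a group value is the mean ± SD of 3 libraries. Single values are given in the order KO72, KO73, KO75 for the Trmt6-/- label and WT185, WT186, WT187 for WT. Trmt6 stood at 39.8, 34.2 and 36.2 CPM under the Trmt6-/- label and at 30.9, 18.7 and 23.1 CPM in WT. The targeted transcript was therefore not lower where the label says knockout, but higher in each such library than in any WT library. The fitted difference was 1.51-fold (edgeR unadjusted p = 0.0256, adjusted p = 0.335), and which exons were read cannot be seen in gene counts. For that reason the first group is named only by its label, and every direction below rests on it. Epithelial markers were abundant in all 6 libraries, with 6 epithelial genes summing to between 9484 and 12079 CPM, and 8 small intestinal enterocyte genes summed to between 15520 and 45872 CPM. Muscle markers summed to at most 2.37 CPM, fibroblast markers to at most 8.38 CPM and macrophage markers to at most 23.9 CPM. T and NK cell markers were more abundant and uneven between libraries. They summed to 80.5, 230 and 700 CPM under the Trmt6-/- label and to 258, 377 and 962 CPM in WT. Hoxa13, Hoxb13 and Hoxd13, which mark distal colon, had 0 counts in every library. Levels of regional marker genes varied from library to library. An index of 4 ileal minus 4 proximal marker genes (mean log2 CPM) lay between -3.67 and 0.61 under the Trmt6-/- label and between -7.41 and -1.69 in WT, lowest in WT186. Its genes did not all run in parallel. In KO75 the ileal gene Slc51b was at 99.7 CPM, its highest value, whereas the ileal gene Fabp6 was at 16.7 CPM, against 341 CPM in KO72. Slc51b (higher under the Trmt6-/- label) and the proximal gene Gata4 (lower) had separate groups, and the rest overlapped. Whether the index follows the segment sampled or the group difference was not tested.

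Cells take up cystine through the antiporter system xc-, whose transport chain is encoded by Slc7a11, and reduce it to cysteine for the tripeptide glutathione. Glutathione peroxidases use glutathione to remove peroxides, and glutathione reductase regenerates it with NADPH. The transcription factor NRF2, encoded by Nfe2l2, is kept scarce by KEAP1 until oxidants or electrophiles release it, after which it acts on antioxidant response elements (ARE) of many of these genes. Slc7a11 is also a classical target of ATF4, the transcription factor of the integrated stress response, which binds C/EBP-ATF response elements (CARE). In the gut this chemistry protects an epithelium that faces luminal oxidants and, in colitis, oxidants from inflammatory cells.

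The promoter windows of the members differ in which core letters of these elements they match, and stretches with a match are shown. Promoter windows of 250 bases before the annotated start, taken from RefSeq on GRCm38.p6, matched 8 of the 10 symbols, all but Gclc and Gsr. The ARE core was searched as TGACNNNGC and the CARE core as TGATGNAA, each on both strands, and no match of one overlapped a match of the other. Capitals mark the match, and each line runs 5′ to 3′ on the strand of the gene. Slc7a11 (chr3:50443634-50443733, minus strand) held 2 CARE matches on opposite strands and no ARE match. Chac1 (chr2:119351022-119351081, plus strand), which encodes a glutathione-degrading enzyme and is another ATF4 target, held 1 CARE match. ARE matches are shown for Gclm (chr3:122245397-122245456, plus strand), Nfe2l2 (chr2:75704874-75704913, minus strand, over 1 exon of E030042O20Rik) and the second of 3 annotated starts of Txnrd1 (chr10:82859086-82859145, plus strand).
Slc7a11: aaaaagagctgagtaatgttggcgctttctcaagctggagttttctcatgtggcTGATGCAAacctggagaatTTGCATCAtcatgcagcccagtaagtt
Chac1: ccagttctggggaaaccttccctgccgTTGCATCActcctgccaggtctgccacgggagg
Gclm: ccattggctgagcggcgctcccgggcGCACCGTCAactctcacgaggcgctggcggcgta
Nfe2l2: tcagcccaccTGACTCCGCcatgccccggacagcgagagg
Txnrd1: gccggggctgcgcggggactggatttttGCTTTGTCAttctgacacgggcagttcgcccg
G6pdx held an ARE match as well. In all, 4 of the 10 member windows (Txnrd1 has 3) held the ARE core, against 10.2% of 32851 windows of the same length, and only that of Slc7a11 held the CARE core, against 3.45%. An element outside the window or with other letters would have been missed, and the window of Nqo1 matched neither core. These matches are descriptions of letters and not evidence of binding.

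Slc7a11, Gsr and Gpx2 stood higher in every library labelled Trmt6-/- than in any WT library, and Nfe2l2 stood lower. The fitted difference was 2.67-fold for Gsr and 3.14-fold for Gpx2 and larger for Slc7a11, whereas Nfe2l2 was 2.04-fold higher in WT. In the other 6 members the groups overlapped. None of the 10 passed an adjusted p of 0.05 in edgeR over 14107 genes, where 0.0425% of all genes did. At an unadjusted edgeR p below 0.05 there were 4 members, 3 higher and 1 lower, against 12.1% of all genes (6.15% higher and 5.94% lower). Groups without overlap were seen in the same 4 of 10, against 18.7% of all genes (9.7% higher and 9.03% lower). DESeq2, which called 4.49% of the genes it tested, called these 4 members and no other. Because the members were chosen with earlier results of these data known, these counts are descriptions.

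**Figure D1:**
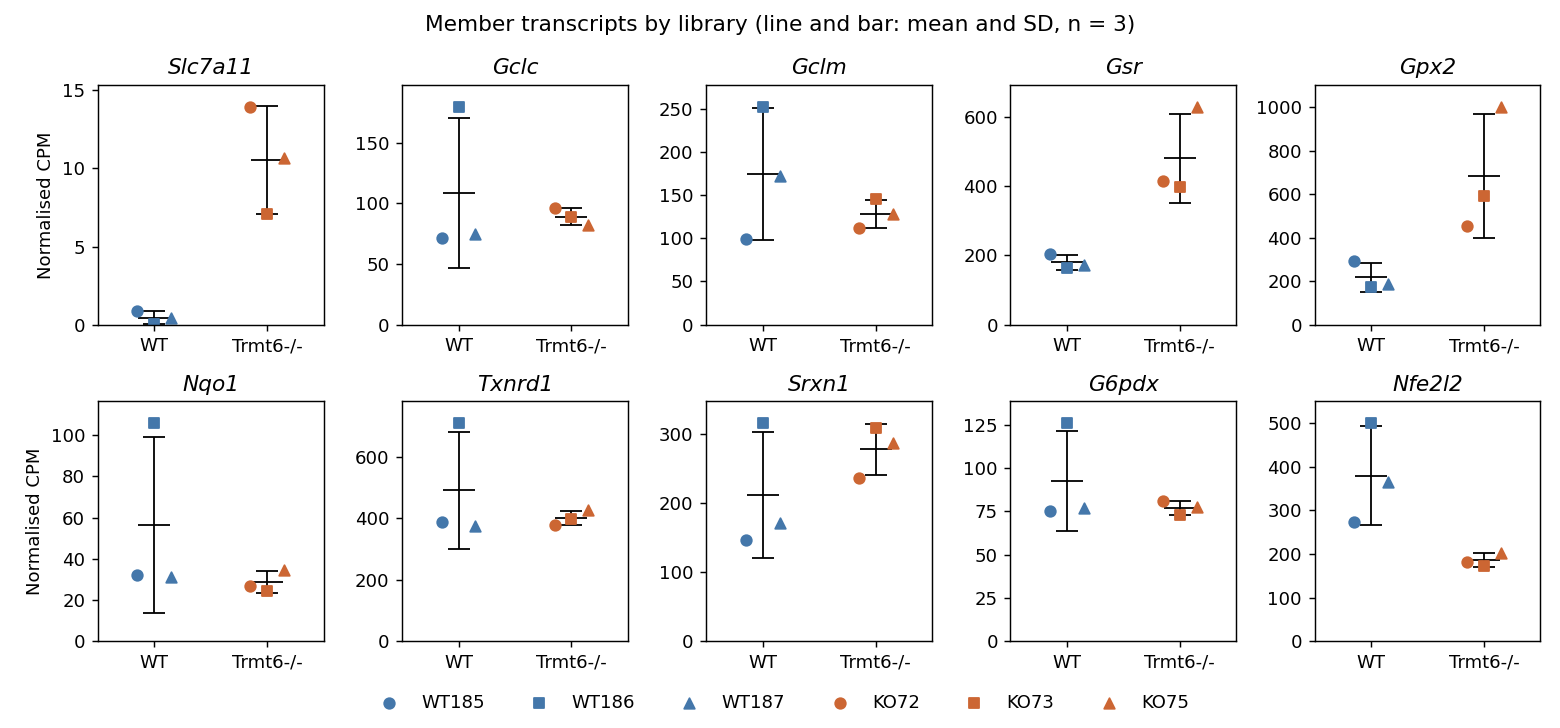
Normalised CPM of the 10 members in each library (points), with the group mean and SD (line and bar, n = 3); the vertical axes start at 0 and differ between panels. Slc7a11, Gsr and Gpx2 separate upward and Nfe2l2 downward in the libraries labelled Trmt6-/-, and WT186 lies above the other WT libraries in 7 panels.

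Slc7a11 (GRCm38 chromosome 3, 49892526 to 50443614), the cystine-importing chain, was measured at 13.9, 7.05 and 10.7 CPM under the Trmt6-/- label and at 0.886, 0.0682 and 0.420 CPM in WT. The lowest library labelled Trmt6-/- was thus above the highest WT library by a wide margin, and the WT values rest on 17, 1 and 7 fragments. Summed over groups there were 498 against 25 fragments, a scaled ratio of 21.8 with an exact 95% counting interval of 14.6 to 34.1, which covers counting error only. The log2 fold change was 4.46 ± 0.71 (SE; edgeR unadjusted p = 4.5e-04, adjusted p = 0.123). It ran from 3.99 without WT186 to 5.38 without WT185, and was 3.87 with the regional index as a covariate. Slc3a2, the heavy chain with which SLC7A11 pairs, showed no such separation at 290 ± 68.5 against 288 ± 96.7 CPM (log2 fold change 0.01 ± 0.31). Per kilobase of annotated exon, Slc7a11 amounted to 1.64%, 0.586% and 0.774% of Slc3a2 in KO72, KO73 and KO75, whereas in WT that share was 0.126%, 0.00536% and 0.0293%. The heavy chain is shared with other amino acid transporters. Macrophage markers summed to between 11.4 and 19.1 CPM under the Trmt6-/- label and between 12.3 and 23.9 CPM in WT, and neutrophil markers to between 0.847 and 8.68 CPM and between 0.136 and 0.959 CPM. The part of such cells in the Slc7a11 difference was not tested.

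Among genes that supply cysteine or turn glutathione over, Chac1 had groups separated as widely as those of Slc7a11. It was measured at 11.8, 7.26 and 16.4 CPM under the Trmt6-/- label and at 0.469, 0.0682 and 0.659 CPM in WT (543 against 21 fragments, ratio 28.4 with an exact 95% counting interval of 18.4 to 46.2). Its groups were separate, and its log2 fold change of 4.83 ± 0.68 did not pass (edgeR adjusted p = 0.112). The list held 26 genes, of which 25 were tested. None passed over all genes, 1 (Chac1) had an unadjusted p below 0.05, against 12.1% of all genes, and the median log2 fold change was 0.03 against -0.03 for all genes tested. This count depended on the fit. It was 4 higher and 2 lower without WT185, where 1103 higher and 1006 lower of all 14543 genes reached that p. Without WT186 it was 4 higher and 0 lower, against 11.5% of all genes. With the regional index it was 7 higher and 2 lower (median 0.29), against 20.6% of all genes. The apical cystine and dibasic amino acid transporter is encoded by Slc7a9 and Slc3a1. Slc7a9 stood at 337 ± 60.8 against 234 ± 44.0 CPM and Slc3a1 at 262 ± 30.2 against 185 ± 42.5 CPM, and neither had an unadjusted edgeR p below 0.05. Slc25a39, the mitochondrial glutathione importer, stood at 133 ± 9.09 against 169 ± 20.4 CPM and did not either. Glutathione synthetase, Gss, was at 101 ± 11.4 against 104 ± 20.6 CPM, and Ggt1, which begins the breakdown of extracellular glutathione, at 623 ± 207 against 618 ± 359 CPM.

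**Figure D2:**
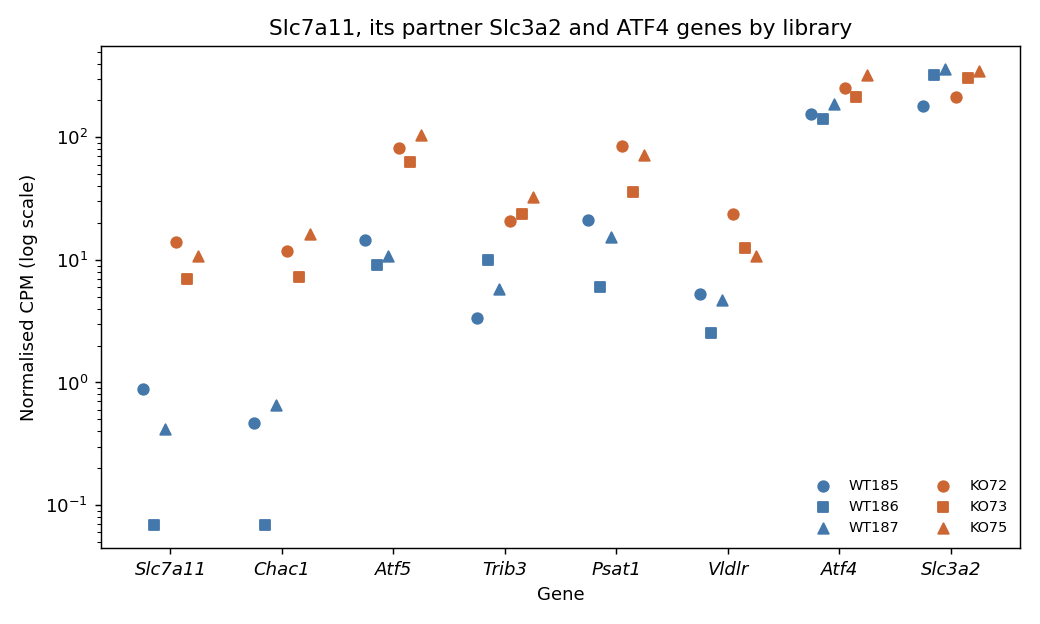
Normalised CPM (log scale) of Slc7a11, Chac1, 5 ATF4-axis genes and Slc3a2 in each library (points; blue WT, orange labelled Trmt6-/-). Slc7a11 and Chac1 lie at 7.05 CPM or more under that label and at most at 0.886 CPM in WT, with WT186 lowest, whereas Slc3a2 overlaps.

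ATF4-axis genes, a list of 10 chosen with earlier results of these data known, had a median log2 fold change of 1.53. The median over all genes tested was -0.03. Atf5 rose over all genes tested (83.5 ± 20.7 against 11.5 ± 2.87 CPM, edgeR adjusted p = 0.0424). It did not pass with any 1 library left out (adjusted p between 0.071 and 0.198), with the regional index (0.0614), with upper-quartile scaling (0.0511), with library totals (0.0786) or in limma-voom (0.0803). Its log2 fold change stayed between 2.67 and 3.10 in all 15 alternatives. An unadjusted edgeR p below 0.05 with higher values was reached by 6 of the 10, against 6.15% of all genes. Besides Atf5 there were another 5. They were Trib3 (2.02 ± 0.42), a pseudokinase gene that feeds back on ATF4, the serine synthesis gene Psat1 (2.17 ± 0.51), the lipoprotein receptor gene Vldlr (1.90 ± 0.42), the asparagine synthetase gene Asns (1.68 ± 0.40) and Atf4 itself (0.71 ± 0.21). Not every gene of the axis did so. Ddit3, which encodes CHOP, was measured at 11.2 ± 3.68 against 11.2 ± 3.58 CPM. The sestrin gene Sesn2 stood at 17.2 ± 0.561 against 15.1 ± 1.12 CPM, with separate groups. Phgdh (1.39 ± 0.60, groups overlapping) and Ddit4 (0.83 ± 0.35, groups separate) were just short, with unadjusted edgeR p of 0.0527 and 0.0505.

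The groups overlapped for both subunits of the enzyme that begins glutathione synthesis. Gclc (chromosome 9, 77754535 to 77794485), the catalytic subunit of glutamate-cysteine ligase, the rate-limiting step, was measured at 96.1, 88.4 and 82.1 CPM under the Trmt6-/- label and at 71.4, 179.6 and 74.3 CPM in WT. Gclm (chromosome 3, 122245557 to 122270732), its modifier subunit, was measured at 112, 145 and 128 CPM and at 99.1, 252 and 172 CPM. In both genes WT186 was the highest library and WT185 the lowest, so the WT group enclosed the other. Their log2 fold changes were -0.29 ± 0.37 and -0.44 ± 0.33 (edgeR adjusted p = 0.827 and 0.680). For Gclc the sign turned without WT186 (0.30) and with the regional index (0.22), and for Gclm it turned with the regional index (0.26). Without WT185, Gclm stood at -0.70 with an unadjusted edgeR p of 0.0209. The ratio of Gclc to Gclm per kilobase lay between 1.02 and 1.43 in the libraries labelled Trmt6-/- and between 0.722 and 1.20 in WT. Of the exon bases of Gclm, 4.71% are shared with other annotated genes.

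Gsr and Gpx2, which recycle and spend glutathione, both stood higher in the libraries labelled Trmt6-/-. Gsr (chromosome 8, 33652523 to 33698163), glutathione reductase, was measured at 415, 397 and 629.9 CPM under the Trmt6-/- label and at 205, 163 and 173 CPM in WT. All values of the first group exceeded the second, with KO75 highest and the WT libraries close together (481 ± 129 against 180.3 ± 21.8 CPM; log2 fold change 1.41 ± 0.24, edgeR unadjusted p = 6.1e-04, adjusted p = 0.128). Gpx2 (chromosome 12, 76792333 to 76795554), the glutathione peroxidase of gastrointestinal epithelium and a selenoprotein, was measured at 452, 593 and 1003 CPM and at 292, 172 and 188 CPM. Here too the groups were separate and KO75 was highest (683 ± 286 against 218 ± 65.2 CPM; 1.65 ± 0.36, edgeR unadjusted p = 0.00279, adjusted p = 0.188). With any 1 library left out, Gsr kept a log2 fold change between 1.18 and 1.54 and Gpx2 between 1.27 and 1.95. With the regional index as a covariate they were 1.47 and 1.65. The annotated pseudogene Gpx2-ps1 took at most 8 fragments in a library. Markers of crypt stem and dividing cells summed to between 179.6 and 1035 CPM under the Trmt6-/- label and between 657 and 2266 CPM in WT. Among the libraries labelled Trmt6-/- they were lowest in KO75, where Gpx2 was highest. Within WT the order was the other way, with both the marker sum and Gpx2 highest in WT185 (2266 and 292 CPM) and lowest in WT186 (657 and 172 CPM). In tissue RNA, fewer cells of a type and less RNA per cell cannot be told apart.

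Of 21 other peroxidase and thioredoxin genes 20 were tested, and none passed over all genes. At an unadjusted edgeR p below 0.05 there were 1 higher and 5 lower, against 6.15% and 5.94% of all genes, with a median log2 fold change of -0.28. The higher one was Txnip, the thioredoxin-binding protein gene (444 ± 119 against 251 ± 78.4 CPM). Lower values were found for Prdx2, a cytosolic peroxiredoxin (103 ± 9.31 against 152 ± 13.4 CPM), and for the mitochondrial pair Txn2 (98.0 ± 11.1 against 129.9 ± 9.54 CPM) and Txnrd2 (12.1 ± 0.149 against 20.1 ± 5.09 CPM). The remaining 2 were Gpx3 and Sod2, which encode an extracellular peroxidase and the mitochondrial superoxide dismutase. Gpx4, the peroxidase that removes lipid peroxides in ferroptosis, stood at 271 ± 101 against 321 ± 147 CPM. Without WT186 the list held 0 higher and 2 lower genes (median -0.08), against 11.5% of all genes. Without KO73 it held 0 and 3, against 565 and 482 of all 14671 genes. With the regional index it held 2 and 2 (median -0.01), against 20.6% of all genes, so the lean towards lower values was not seen in the last fit.

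The NADPH and thioredoxin members of the NRF2 set shared one shape, a high WT186 and 5 libraries close together. Nqo1 (chromosome 8, 107388225 to 107403206), a quinone reductase and the usual reporter gene of NRF2, was measured at 27.0, 24.3 and 34.5 CPM under the Trmt6-/- label and at 32.3, 105.7 and 31.2 CPM in WT. Txnrd1 (chromosome 10, 82833951 to 82897712), the cytosolic thioredoxin reductase, was measured at 378, 398 and 425 CPM and at 387, 709 and 375 CPM. G6pdx (chromosome X, 74409483 to 74429194), which opens the pentose phosphate pathway and so supplies NADPH, was measured at 80.8, 72.8 and 77.3 CPM and at 75.5, 126 and 76.7 CPM. In these 3 genes WT185 and WT187 lay inside the range of the other group, except Txnrd1 in WT187, which was just below it. Their log2 fold changes of -0.98 ± 0.49, -0.29 ± 0.28 and -0.27 ± 0.22 came to -0.14, 0.0817 and 0.0261 without WT186, so Txnrd1 and G6pdx turned sign. Nqo1 had an unadjusted edgeR p below 0.05 without WT185 (-1.24) or without WT187 (-1.27). Xist was read in every library and 4 Y-linked genes had 0 counts in all, so the X-linked G6pdx was compared within 1 sex. Of its exon bases, 13.6% are shared with Ikbkg on the other strand, and no strand option was set in counting.

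Srxn1 (chromosome 2, 152105516 to 152111376), sulfiredoxin, which repairs over-oxidised peroxiredoxins, was measured at 237, 309 and 288 CPM under the Trmt6-/- label and at 147, 315 and 171 CPM in WT. WT186 alone reached the other group. The log2 fold change was 0.40 ± 0.31 with all 6 libraries (edgeR unadjusted p = 0.244), 0.82 ± 0.20 without WT186 (unadjusted p = 0.00601, adjusted p = 0.267) and 0.93 ± 0.31 with the regional index (unadjusted p = 0.0227, adjusted p = 0.171). An unadjusted p below 0.05 was reached by 11.5% of all genes in the former of these fits and by 20.6% in the latter.

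Nfe2l2 (chromosome 2, 75675513 to 75704641), the gene of NRF2 itself, was measured at 181, 174 and 203 CPM under the Trmt6-/- label and at 274, 499.8 and 366 CPM in WT. Every library labelled Trmt6-/- lay below every WT library, and those 3 lay closer together than the WT libraries did (186 ± 15.3 against 380.0 ± 113 CPM). The log2 fold change was -1.03 ± 0.25 (edgeR unadjusted p = 0.00424, adjusted p = 0.205). It was -0.77 without WT186 and -0.60 with the regional index. Keap1, the main repressor of the NRF2 protein, stood at 59.1 ± 5.93 against 62.0 ± 3.24 CPM. Of 14 regulators 13 were tested, none passed over all genes, and 2 of the 13 had an unadjusted edgeR p below 0.05, both higher, which is near the 12.1% of all genes. Without KO73, WT185 or WT186 the count was 0. Over all genes it was 565 higher and 482 lower of 14671 without KO73, 1103 and 1006 of 14543 without WT185, and 11.5% without WT186. The 2 genes were Bach1, a repressor that competes at ARE sites (157 ± 27.0 against 105 ± 22.8 CPM), and Maff, a small MAF partner gene (15.4 ± 3.71 against 10.2 ± 1.02 CPM). Gsk3b, a kinase gene upstream of NRF2 degradation (156 ± 18.1 against 126 ± 13.8 CPM), and the repressor gene Bach2 (11.4 ± 2.95 against 6.81 ± 4.96 CPM) did not reach an unadjusted p below 0.05. Transcript counts do not show NRF2 protein, which is controlled mainly by its degradation.

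WT186 was either the highest or the lowest library for all 10 members, highest in 7 and lowest in Slc7a11, Gsr and Gpx2. Over all genes tested it was the highest library in 24.7% and the lowest in 23.3%, or 48.0% together, and next came WT185 with 40.9%. Relative to the mean of WT185 and WT187, WT186 was 3.33 times as high for Nqo1, 2.46 for Gclc, 1.98 for Srxn1, 1.86 for Gclm and Txnrd1, 1.65 for G6pdx and 1.56 for Nfe2l2. The corresponding ratios were 0.865 for Gsr, 0.718 for Gpx2 and 0.105 for Slc7a11. Across the 6 libraries, which share these group differences, the Pearson correlation of log2 CPM was 0.98 between Gsr and Gpx2 and 0.97 between Nqo1 and Txnrd1. It was -0.97 between Slc7a11 and Nfe2l2.

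**Figure D3:**
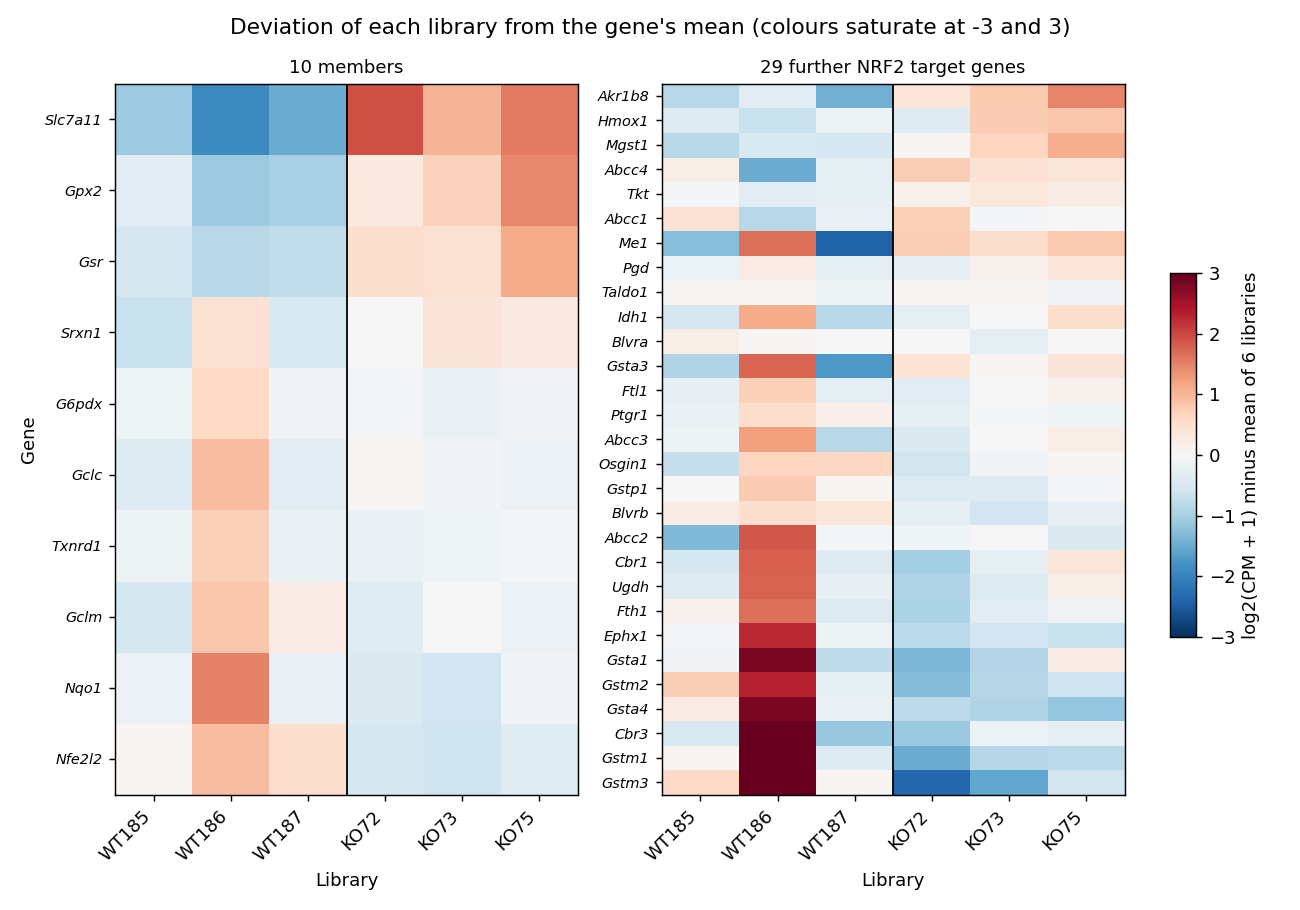
Deviation of each library from the gene's mean on the log2(CPM + 1) scale (colour) for the 10 members (left) and 29 further NRF2 target genes (right), ordered by fold change; the black line divides WT from the libraries labelled Trmt6-/-. WT186 is the reddest column for 7 members and for the glutathione S-transferase genes; colours saturate at -3 and 3.

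Further NRF2 targets of detoxification, NADPH supply, iron and heme gave the same picture of WT186. Of 30 genes 29 were tested, and WT186 was the highest library in 20 (69.0%). None passed over all genes. At an unadjusted edgeR p below 0.05 there were 3 higher and 7 lower than in WT (median log2 fold change -0.40), against 6.15% and 5.94% of all genes. Without WT186 there were 5 higher and 6 lower (median 0.13), without KO73 2 and 4 (median -0.43) and without WT185 4 and 11 (median -0.61). The share of all genes also changed with the fit. Without WT186 it was 11.5%. Without KO73 it was 565 higher and 482 lower of 14671 genes, and without WT185 1103 and 1006 of 14543. With the regional index there were 3 higher and 1 lower (median 0.20), against 20.6% of all genes. The median was thus negative only with WT186 included and no covariate among these fits. The higher ones were Akr1b8, an aldo-keto reductase gene (23.8 ± 9.77 against 6.42 ± 2.82 CPM), Mgst1, a membrane-bound glutathione transferase gene (505 ± 177 against 212 ± 29.1 CPM), and the heme oxygenase gene Hmox1. Hmox1 was scarce, at 1.99 ± 1.19 against 0.622 ± 0.279 CPM, and its groups overlapped. Among the lower ones were Blvrb, biliverdin reductase B (10.2 ± 1.30 against 17.7 ± 1.82 CPM), and the epoxide hydrolase gene Ephx1 (7.28 ± 0.709 against 28.4 ± 29.5 CPM).

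Cytosolic glutathione S-transferases, which join glutathione to electrophiles, made up the other 5 of the 7 lower genes. They were grouped after their values were seen. Gstm3 stood at 18.5, 33.0 and 67.9 CPM under the Trmt6-/- label and at 152, 1394 and 103 CPM in WT. For Gstm1 the values were 19.5, 30.7 and 31.6 CPM against 58.5, 656 and 42.5 CPM. For Gsta4 they were 15.5, 14.2 and 11.7 CPM against 32.5, 201 and 23.5 CPM. Gstm2 was measured at 7.72 ± 2.08 against 39.1 ± 35.1 CPM and Gstp1 at 116 ± 16.8 against 176 ± 53.4 CPM. In these 5 genes all WT libraries exceeded all others, and WT186 was highest in each of the 7 such genes tested. With the regional index as a covariate, 0 of the 7 had an unadjusted edgeR p below 0.05, against 20.6% of all genes. Without WT186 there were 1 higher and 4 lower at that p, against 11.5% of all genes. The median log2 fold change of the 7 was -2.34 in the reported fit, -1.015 with the regional index and -0.88 without WT186. The regional index was lowest in WT186 (-7.41) but nearly as low in WT187 (-6.04), which had the lowest WT values of Gstm3, Gstm1, Gsta4 and Gstm2, whereas WT185 was at -1.69. The relation of the index to these genes was not tested.

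**Figure D4:**
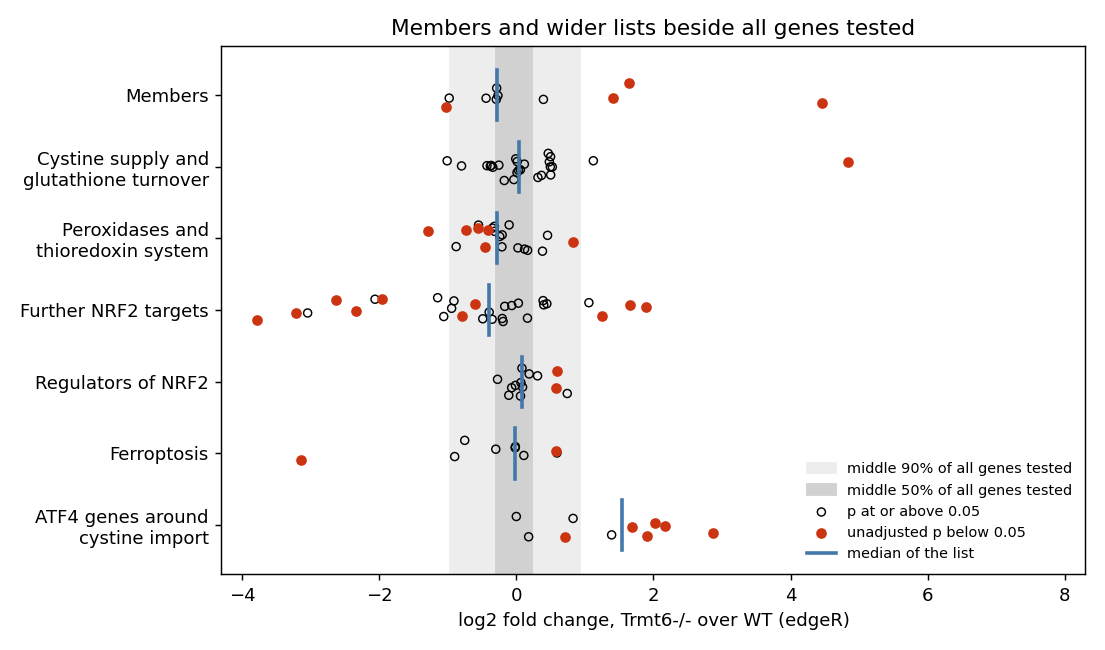
Log2 fold changes (libraries labelled Trmt6-/- over WT, edgeR) of the members and of 6 wider lists, 1 point per tested gene, with the median of each list (blue line) and the middle 50% and 90% of all genes tested (grey). Filled points have an unadjusted p below 0.05; the ATF4 list has its median at 1.53, and the NRF2 targets spread to both sides.

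Genes of ferroptosis, the form of cell death that cystine shortage and lipid peroxides bring on, showed no common direction. Of 12 genes 9 were tested, with 1 higher and 1 lower at an unadjusted edgeR p below 0.05, against 12.1% of all genes, and a median log2 fold change of -0.02. Without KO73 the count was 0, where 565 higher and 482 lower of all 14671 genes reached that p. Without WT186 it was 2 higher and 0 lower, against 11.5% of all genes. Gch1, which makes the antioxidant cofactor tetrahydrobiopterin, stood at 26.0 ± 0.433 against 17.4 ± 3.45 CPM. The iron exporter gene Slc40a1 was at 12.5 ± 7.61 against 110.2 ± 131 CPM and differed widely within WT, with 69.1, 256 and 5.09 CPM. Acsl4, which loads membranes with oxidisable lipids, stood at 4.63 ± 2.35 against 8.62 ± 2.01 CPM, and the phospholipid-remodelling gene Lpcat3 at 453 ± 125 against 300.4 ± 72.4 CPM. Neither of the last pair had an unadjusted p below 0.05.

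Levels per kilobase were taken over all annotated exon bases of a gene, which can exceed the length of its transcript. By this measure Gpx2 was the most abundant member, with a mean of 139.7 CPM per kilobase over the 6 libraries. It was followed by Gsr (120.0), Srxn1 (86.7), Nfe2l2 (74.6) and Txnrd1 (62.9). G6pdx (27.5), Nqo1 (27.4), Gclc (26.2) and Gclm (24.1) formed a lower tier, and Slc7a11 was last at 0.396. Between neighbours in this order the ranges over libraries separated only at Txnrd1 above G6pdx and at Gclm above Slc7a11. Group levels differed in order. Gpx2 (212 ± 88.7) and Gsr (175 ± 47.0) led in the libraries labelled Trmt6-/-, whereas Nfe2l2 (100.1 ± 29.9) led in WT, ahead of Srxn1 (74.9 ± 32.3), Txnrd1 (69.2 ± 26.7), Gpx2 (67.5 ± 20.2) and Gsr (65.5 ± 7.93). The difference in order was not tested. For Gpx2 the 3222 annotated exon bases fill the whole span of the gene, so its level per kilobase may be understated. Its place below Nfe2l2 in WT therefore depends on the length used. Even at its highest, 1.001 CPM per kilobase in KO72, Slc7a11 remained a scarce transcript.

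The genes whose log2 CPM most resembled that of Slc7a11 over the 6 libraries were Rin1 (Pearson r = 0.994), P4ha1 (0.991), Ttpal (0.990), Lgr4 (0.989) and Rbm3 (0.985), among genes at 5 CPM or more. They encode a RAS and RAB5 effector, a collagen prolyl hydroxylase subunit, a tocopherol-transfer-like protein, an R-spondin receptor and a cold-inducible RNA-binding protein. Each stood higher in all libraries labelled Trmt6-/- and lowest in WT186. Rin1, for example, was measured at 19.1 ± 2.73 against 5.27 ± 1.39 CPM and Lgr4 at 263 ± 3.85 against 157 ± 21.8 CPM. The 6 libraries fall into 2 groups, so these correlations share the group difference and are a description.

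**Figure D5:**
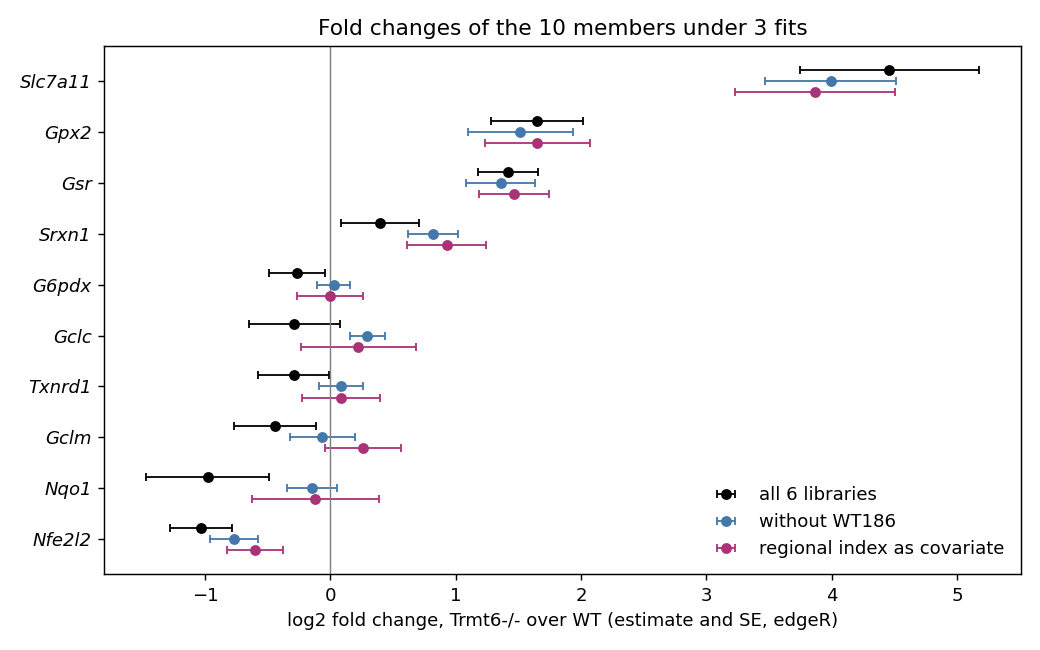
Log2 fold change (libraries labelled Trmt6-/- over WT) of each member with its SE, fitted in edgeR with all 6 libraries (black), without WT186 (blue) and with the regional index as a covariate (purple). Slc7a11, Gpx2 and Gsr stay above 1 and Nfe2l2 below -0.5 in all 3 fits, whereas Nqo1, Gclm, Txnrd1, Gclc and G6pdx lie at most 0.30 from 0 in the second and the third.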

How the data were processed

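Gene counts were made by the authors with featureCounts 2.0.1 (paired reads, exons grouped by gene, GENCODE M23, no strand option), per the file headers. The submitters' processing notes name fastp, HISAT2 and mm10, without versions of the tools. Gene length (unit: other) is the deposited exon length and was used for values per kilobase. Columns carry a genotype and a number and were assigned to groups by name. Symbols came from GENCODE M21 (55154 of 55335 identifiers matched) and coordinates from the deposited table. The design text counts 3 mice a group; the labels do not say how the libraries were tied to animals beyond that.

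Counts were filtered (filterByExpr), scaled by TMM and tested for genotype in edgeR 4.0.16 (R 4.3.3) with its quasi-likelihood F test, two-sided, with Benjamini-Hochberg adjustment over 14107 genes and a threshold of 0.05. The SE is the log2 fold change divided by the square root of F. The code was tested on simulated data. An exact permutation test of 3 against 3 cannot go below 0.1 and was not used for single genes. Alternatives were RLE, upper-quartile and library-total scaling, DESeq2 1.42.0, limma-voom (limma 3.58.1), robust dispersions, 2 other filters, a regional covariate and each library left out.

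The members and lists were chosen with earlier results of these data known. The rule named all 10 members, Trmt6, list genes past the threshold, up to 4 others of each list ordered by p (mean of 5 CPM or above), and the 5 genes most correlated with Slc7a11. Other genes named (Slc3a2, Gss, Ggt1, Asns, Atf4, Ephx1, Ddit3, Sesn2, Phgdh, Ddit4, Gpx3, Gpx4, Sod2, Keap1, Hmox1 and the glutathione S-transferases) were chosen after their values were seen. Libraries were amplified, per the labels' protocols, and no molecular identifiers are mentioned.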

Additional observations from a re-analysis of the deposited data

How the results depend on the processing

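No paired analysis was possible because the columns carry numbers that match no replicate number of the labels. Member fold changes kept their direction in 144 of 150 values under 15 alternatives. The 6 exceptions were Gclc (0.30), Txnrd1 (0.0817) and G6pdx (0.0261) without WT186, and Gclc (0.22), Gclm (0.26) and Txnrd1 (0.0864) with the regional index as a covariate; the cause was not tested. With 1 library left out the fold changes ran from -0.50 to 0.30 for Gclc, from -0.46 to 0.0817 for Txnrd1 and from -0.40 to 0.0261 for G6pdx. No member passed the threshold except 4 with DESeq2 and 3 without a low-count filter (Slc7a11, Gsr and Gpx2). Members at an unadjusted p below 0.05 numbered 4 in the reported fit and 4 to 6 with 1 library left out, 5 with the regional index. The share of all genes at that p was 12.1% in the reported fit and 20.6% with the regional index. Genes past the threshold numbered 6 in the reported fit, 0 with library totals, limma-voom or the regional index, 159 without a low-count filter, 633 with DESeq2 and 0 to 6 with 1 library left out. List genes at an unadjusted p below 0.05 numbered 27 of 106 tested, and 17 (without KO73) to 36 (without WT185) with 1 library left out. The count over all genes moved too, with 565 higher and 482 lower of 14671 without KO73 and 1103 and 1006 of 14543 without WT185. Members with separate groups numbered 4, or 5 with library totals, and the median level per length stayed within 1 SD. Slc7a11 in WT is limited by depth, with 25 fragments in 3 libraries.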
